A study of Dichomitus squalens with 6 samples.

Results

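Scaffold 68 is 1 of 406 scaffolds that carry gene models in the genome assembly of the white-rot fungus Dichomitus squalens, monokaryotic strain CBS 464.89. Models were selected on their measured counts: each had to have an expected count of at least 10 in 2 or more of the 6 RNA-seq libraries. That left 52 of its 64 models, of 12699 models that met the same count rule on all scaffolds. Mycelium was taken after 5 days at 28 °C from plates of low-nitrogen asparagine-succinate medium with 1.5% agar and 25 mM of 1 sugar, which was L-rhamnose, xylose or cellobiose, with 2 libraries each. All plates thus shared the medium, the strain, the time and the temperature, and no library from plates without a sugar was analysed here. Separate cultures are not stated for the replicates, so p-values measure only the spread between these libraries, which may be technical. The count rule used the level of a gene and not its difference between sugars. A gene could still pass it with the 2 libraries of 1 sugar alone. With L-rhamnose, gene_12765 and gene_12764 (named after its values were seen) did so. Both are counted among the genes highest on L-rhamnose, and gene_12765 among those called higher. The scaffold itself had come to notice through how often its genes were higher with L-rhamnose than with cellobiose, so that share is given as a description. Other counts of genes high on L-rhamnose or low on cellobiose come from the same libraries and are descriptions too.

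Pectin contains L-rhamnose, the backbone of xylan is built of D-xylose, and enzymes that attack cellulose set free cellobiose, a pair of linked glucose units. Fungi break down L-rhamnose by a pathway without phosphorylated intermediates that ends in pyruvate and L-lactaldehyde, D-xylose by way of xylitol and the pentose phosphate pathway, and cellobiose after cleavage to glucose by beta-glucosidases. Genes of 1 pathway lie side by side in some fungi, as the L-rhamnose genes do in the yeast Scheffersomyces stipitis. The gene models of scaffold 68 carry positions and JGI protein numbers but no product names in the sources used here, so no function is given to any of them and they are described by where they lie and how they were expressed.

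Libraries summed to between 7306517 and 8126006 expected counts, which are RSEM's estimated numbers of reads per gene. Replicates differed by more than counting noise over all genes, with chi-square values divided by their degrees of freedom of 14.8 for L-rhamnose, 53.9 for xylose and 24.3 for cellobiose, so no library was a copy of another and the xylose pair was the least alike. Scaffold 68 genes took 0.703% and 0.693% of all counts in the L-rhamnose libraries, against 0.299% and 0.376% in the xylose libraries and 0.28% and 0.304% in the cellobiose libraries. The L-rhamnose values do not overlap with the others. In bulk mycelium, a change in the share of cells that use a gene and a change in its RNA per cell cannot be told apart.

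The scaffold is 169524 bases long, and the 52 genes lie between bases 2849 and 157132, 25 on the plus strand and 27 on the minus strand. They have 1 to 19 exons with a median of 3 (5 over all 12699 models that met the count rule) and coding lengths of 195 to 4098 bases with a median of 1017 (1053 over all). An untranslated region is annotated in 32 of them. Neighbours are separated by a median of 752 bases and by at most 6935 bases. The spans of 5 of the 51 neighbouring pairs overlap, by 410 bases at most, but the spans of their coding parts overlap in 0 pairs, and the deposited gene lengths equalled the coding length. Whether counting used strand is not given in the sources used here. None of the 52 had a fractional count (by more than 1e-06) in any library, against 8.39% of all models that met the rule, so their reads were not divided with similar genes.

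At the edge of the count rule, gene_12750 (77243 to 78794) was just inside, with counts of 7 and 10 on L-rhamnose, 5 and 9 on xylose and 10 and 6 on cellobiose. Just outside was gene_12723 (22636 to 22910), with 8 and 14 on L-rhamnose, 1 and 5 on xylose and 5 and 5 on cellobiose. Of the 12 models left out, 2 had no reads in any library. Among the 52, gene_12750 did not pass edgeR's filter on low counts, and the other 51 were tested.

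Levels spanned a wide range along the scaffold. The unit is FPKM, a level scaled to gene length and library size, as deposited by the authors. The counts and FPKM values fit a length somewhat shorter than the coding length, which raises the FPKM of short genes most. The median gene stood at 26.3 and 23.5 FPKM on L-rhamnose, 14.0 and 19 on xylose and 17.1 and 14.0 on cellobiose, and averages over the 6 libraries went from 0.992 to 2408. At 100 FPKM or more were 16 and 15 genes on L-rhamnose, against 8 and 9 on xylose and 5 and 9 on cellobiose. The 5 genes of highest average level were gene_12727, gene_12730, gene_12729, gene_12720 and gene_12716, all in the first 50 kb. Together they held 74.8% and 76.0% of the summed FPKM of the scaffold's 52 genes on L-rhamnose, against 56.8% and 64.4% on xylose and 55.8% and 57.3% on cellobiose. L-rhamnose gave the highest mean level for 35 of the 52 genes (67.3%, against 44.8% of all models that met the rule), xylose for 6 (11.5%, against 23.8%) and cellobiose for 11 (21.2%, against 31.4%).

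**Figure D1:**
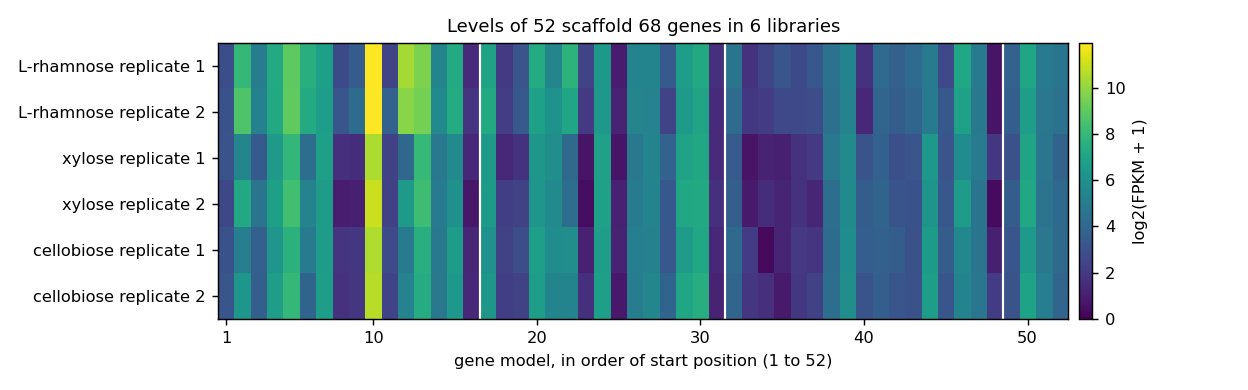
Levels of the 52 genes in each library on the log2(FPKM + 1) scale, with genes in order of start position from left to right and 1 row per library. White lines part 50 kb windows. The bright columns are gene_12727 and, in the L-rhamnose rows, gene_12729 and gene_12730, all in the first window.

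The first comparison set the pectin sugar L-rhamnose against cellobiose. In the first 50 kb of scaffold 68, 11 of 16 tested genes were called higher on L-rhamnose, in runs of 5 and 4 neighbours and a pair between them, while calls were sparser further along and went in both directions. Over the scaffold, 16 of the 51 tested genes were higher (31.4%) and 2 were lower (3.92%) in edgeR's quasi-likelihood test at a Benjamini-Hochberg adjusted p under 0.05, where 11.0% of all 12667 tested genes were higher and 11.0% lower. At least a 2-fold change was found for 12 of the higher genes and both lower ones, against 8.46% and 6.58% of all tested genes. The median log2 fold change was 0.49 over the 51 genes and 0.00 over all tested genes, and single values went from -2.22 to 4.99. Of the 16 higher genes, 1 stayed called without L-rhamnose replicate 1 or L-rhamnose replicate 2, 3 without cellobiose replicate 1 and 1 without cellobiose replicate 2, in fits that called 0.86%, 1.12%, 4.17% and 1.25% of all genes higher, and gene_12730 was called in each of them. The directions of all 18 called genes held in these 4 fits, and the median of the scaffold's genes lay between 0.42 and 0.58.

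Taken in windows of 50 kb from the scaffold's first base, the median log2 fold change between L-rhamnose and cellobiose was 1.24 over 16 tested genes in the first window, 0.24 over 14 in the second, 0.20 over 17 in the third and 0.36 over 4 in the rest. The first window held 11 of the 16 higher genes and 15 of its 16 tested genes had a fold change above 0. Its summed level was 7407 and 7208 FPKM on L-rhamnose, against 2285 and 3304 FPKM on xylose and 2260 and 2538 FPKM on cellobiose. The L-rhamnose libraries lay above the other 4 by a wide margin there. In the second window the sums were 978 and 863 FPKM on L-rhamnose, 694.0 and 732 FPKM on xylose and 711 and 781 FPKM on cellobiose. In the third they were 365 and 322 FPKM on L-rhamnose, 309 and 327 FPKM on xylose and 311 and 316 FPKM on cellobiose, where the ranges overlap.

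**Figure D2:**
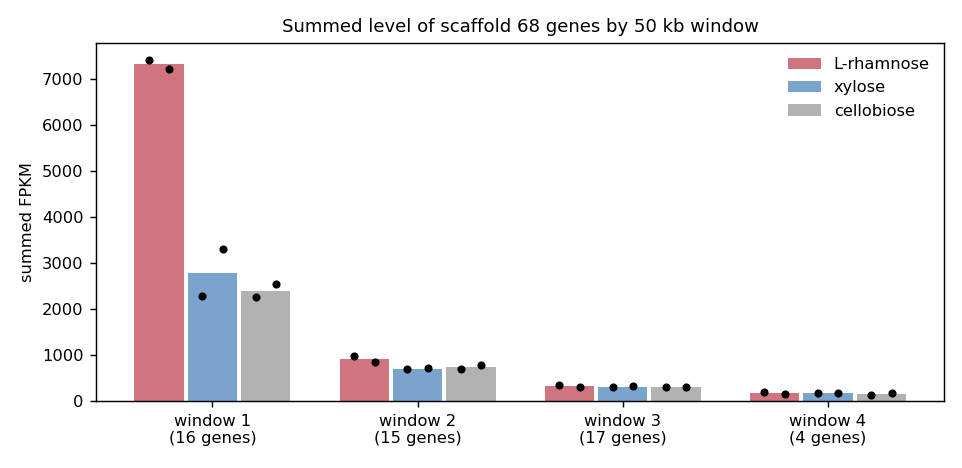
Summed FPKM of scaffold 68 genes in 4 windows of 50 kb, with bars for the mean of 2 libraries and points for each library, and L-rhamnose, xylose and cellobiose from left to right within a window. In window 1 the L-rhamnose libraries are at 7407 and 7208 and the other 4 at or below 3304, and the sugars come close together in the other windows.

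Over all scaffolds, 688 windows of 50 kb held at least 10 tested genes, and their medians for L-rhamnose minus cellobiose lay between -0.40 and 0.47 for the central 90% of windows. The first window of scaffold 68 ranked 1 of 688 by its median and 1 by its share of higher genes (68.8%). When any 1 library was left out, which let 693 to 698 windows hold enough genes, it ranked between 1 and 3 by the median. By the share it ranked 33, 41, 65 and 56 without L-rhamnose replicates 1 and 2 and cellobiose replicates 1 and 2, where 5.88%, 6.25%, 11.8% and 5.88% of its tested genes were called. These ranks are a description of a region that was known to stand out, with no test.

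**Figure D3:**
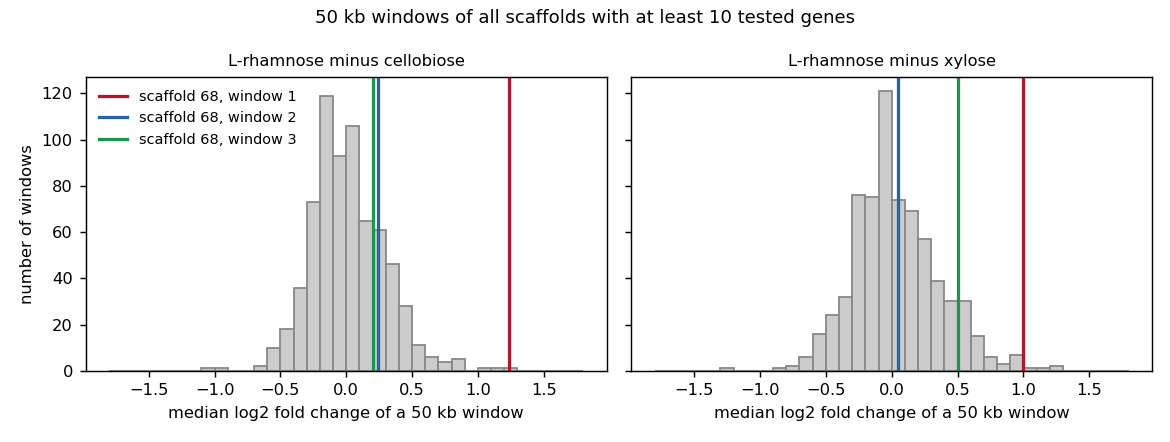
Histograms of the median log2 fold change of 688 windows of 50 kb with at least 10 tested genes, for L-rhamnose minus cellobiose (left) and L-rhamnose minus xylose (right), with lines for windows 1 to 3 of scaffold 68. Window 1 lies at 1.24 and 1, in the upper tail of both panels, and windows 2 and 3 at 0.24 and 0.20 on the left and 0.05 and 0.50 on the right.

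Within the first window, 5 genes that follow each other in the set between 4645 and 20875 were called higher on L-rhamnose than on cellobiose. Their mean level was 227 and 253 FPKM on L-rhamnose, 80.4 and 128 FPKM on xylose and 71.4 and 89.8 FPKM on cellobiose. The first of them, gene_12716 (JGI protein 823605, minus strand, 4645 to 6788, 3 exons), stood at 248 and 403 FPKM on L-rhamnose, 42.2 and 149 FPKM on xylose and 33.8 and 77.2 FPKM on cellobiose. Its replicates differed widely on each sugar, yet both L-rhamnose libraries lay above the other 4. It rose by 2.54 ± 0.64 on the log2 scale against cellobiose (SE, n = 2 each, edgeR adjusted p = 0.0333), and the value was 3.24 without cellobiose replicate 2. Against xylose the difference was 1.64 ± 0.62 (edgeR adjusted p = 0.0829), 2.79 without xylose replicate 2 and 1 without xylose replicate 1, and it passed only in the fit without xylose replicate 2 among those that left out a library.

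Next to it on the plus strand, the 17-exon model gene_12718 (JGI protein 1040474, 8441 to 13112) stood at 32.3 and 36.7 FPKM on L-rhamnose, 9.35 and 22.9 FPKM on xylose and 11.9 and 11.4 FPKM on cellobiose. It rose by 1.55 ± 0.37 against cellobiose (edgeR adjusted p = 0.0285), whereas against xylose the difference of 0.96 ± 0.37 missed the threshold (edgeR adjusted p = 0.0841), but it was 1.72 and passed without xylose replicate 2, and was 0.46 without xylose replicate 1. The single-exon gene_12719 (13862 to 15742) was at 155 and 152 FPKM on L-rhamnose, 88.6 and 110.0 FPKM on xylose and 75.2 and 99.0 FPKM on cellobiose. Its rise against cellobiose, 0.80 ± 0.20, was among the smallest called in the window (edgeR adjusted p = 0.0327). For gene_12720 (JGI protein 823665, plus strand, 16423 to 17095, 2 exons) the levels were 510.4 and 518 FPKM on L-rhamnose, 243 and 318 FPKM on xylose and 206 and 248 FPKM on cellobiose, with replicates close together on L-rhamnose. It rose by 1.16 ± 0.20 against cellobiose and 0.73 ± 0.20 against xylose (edgeR adjusted p = 0.0118 and 0.0309).

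The fifth, gene_12721 (JGI protein 1023819, plus strand, 18647 to 20875, 8 exons), stood at 187 and 155 FPKM on L-rhamnose, 18.7 and 40 FPKM on xylose and 30.6 and 13.4 FPKM on cellobiose. Xylose and cellobiose libraries overlapped, and both lay far under L-rhamnose. The gene rose by 2.93 ± 0.47 against cellobiose and 2.41 ± 0.46 against xylose (edgeR adjusted p = 0.00938 and 0.0104), and the values were 3.64 without cellobiose replicate 1 and 3.03 without xylose replicate 2. The calls against cellobiose of the first 4 of these genes were lost without any 1 library of L-rhamnose or cellobiose, and that of gene_12721 without either L-rhamnose library or cellobiose replicate 2. The calls of gene_12720 and gene_12721 against xylose were lost without either L-rhamnose library, and that of gene_12720 also without xylose replicate 1.

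After gene_12724, which is described with the steady genes, come 3 genes whose spans overlap, gene_12725 (plus strand, 28572 to 29908), gene_12726 (minus strand, 29499 to 30838) and gene_12727 (plus strand, 30831 to 31805). The first pair converges and shares 410 bases, and the last pair diverges and shares 8 bases. In both cases the coding spans of the pair do not overlap each other. Shared bases can still lie in the coding part of a single gene of the pair. Their levels were far apart. The 2-exon gene_12725 was at 5.42 and 8 FPKM on L-rhamnose, 2.15 and 0.85 FPKM on xylose and 2.54 and 2.21 FPKM on cellobiose. The single-exon gene_12726 was at 10.1 and 17.9 FPKM on L-rhamnose, 1.93 and 1.07 FPKM on xylose and 2.85 and 2.71 FPKM on cellobiose. Both rest on few reads, with counts of 41 to 97 on L-rhamnose and 6 to 21 on the other sugars.

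The third, gene_12727 (JGI protein 931419, 6 exons, coding length 327 bases), had the highest level on the scaffold in all 6 libraries, at 3873 and 3975 FPKM on L-rhamnose, 1410.0 and 2075 FPKM on xylose and 1457 and 1655 FPKM on cellobiose. It rose by 1.31 ± 0.24 against cellobiose and 1.03 ± 0.24 against xylose (edgeR adjusted p = 0.0144 and 0.0196). For gene_12726 the rises were 2.31 ± 0.41 and 3.06 ± 0.45 (edgeR adjusted p = 0.0132 and 0.0051), and that against xylose stayed past the threshold without any 1 library. Its partner gene_12725 rose by 2.01 ± 0.46 against xylose (edgeR adjusted p = 0.0184, and 2.83 without xylose replicate 1, the call being lost without either L-rhamnose library), while its difference of 1.48 ± 0.43 from cellobiose stood at the threshold (edgeR adjusted p = 0.05, not past it, but past it without either xylose library). The calls of gene_12726 and gene_12727 against cellobiose were lost without any 1 library of L-rhamnose or cellobiose, and that of gene_12727 against xylose without either L-rhamnose library or xylose replicate 1.

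A further 4 genes in a row on the plus strand, between 33892 and 44826, were called higher on L-rhamnose than on either other sugar. Their mean level was 567 and 455 FPKM on L-rhamnose, 87.6 and 121 FPKM on xylose and 83.0 and 79.0 FPKM on cellobiose. The greatest rise on the scaffold was that of gene_12729 (JGI protein 882561, 33892 to 35926, 9 exons, coding length 855 bases), at 1282 and 908 FPKM on L-rhamnose, 15.1 and 86.2 FPKM on xylose and 28.8 and 38.7 FPKM on cellobiose. The L-rhamnose libraries lay far above every other library, and the xylose replicates of this gene were the least alike of any gene here, 2.44 apart on the log2(FPKM + 1) scale. It rose by 4.99 ± 0.76 against cellobiose and 4.30 ± 0.74 against xylose (edgeR adjusted p = 0.00855 and 0.0079). The size of the rise against xylose rests on the xylose replicates, with 3.53 without xylose replicate 1 and 6.02 without xylose replicate 2.

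Beside it, the 10-exon gene_12730 (JGI protein 882565, 36800 to 39630) stood at 783 and 697 FPKM on L-rhamnose, 257 and 305 FPKM on xylose and 184 and 167 FPKM on cellobiose, so that the 3 sugars did not overlap. It rose by 2.05 ± 0.21 against cellobiose and 1.25 ± 0.20 against xylose (edgeR adjusted p = 0.00277 and 0.00645). This was the only one of the 16 genes whose rise against cellobiose stayed past the threshold without any 1 library, between 1.98 and 2.12. The other genes of the group rose less. The 3-exon gene_12732 (39768 to 44435), the longest coding sequence on the scaffold, was at 41.7 and 52.3 FPKM on L-rhamnose, 26.3 and 28.9 FPKM on xylose and 26.6 and 27.0 FPKM on cellobiose. Only 4 bases after it ends, the single-exon gene_12733 (44440 to 44826) began, at 159 and 161 FPKM on L-rhamnose, 52.4 and 63.6 FPKM on xylose and 92.4 and 83.3 FPKM on cellobiose.

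Against cellobiose, gene_12732 rose by 0.79 ± 0.18 and gene_12733 by 0.85 ± 0.19 (edgeR adjusted p = 0.0259 and 0.0223). Against xylose the rises were 0.63 ± 0.18 and 1.33 ± 0.19 (edgeR adjusted p = 0.0393 and 0.00459), and for gene_12733 the xylose libraries also lay under the cellobiose libraries, by a difference that did not pass (-0.48 ± 0.19, edgeR adjusted p = 0.219). The calls of gene_12729, gene_12732 and gene_12733 against cellobiose were lost without any 1 library of L-rhamnose or cellobiose. Against xylose, that of gene_12732 was lost without any 1 of the 6 libraries and those of gene_12729 and gene_12730 without L-rhamnose replicate 1, while gene_12733 kept its call in all 6 fits.

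**Figure D4:**
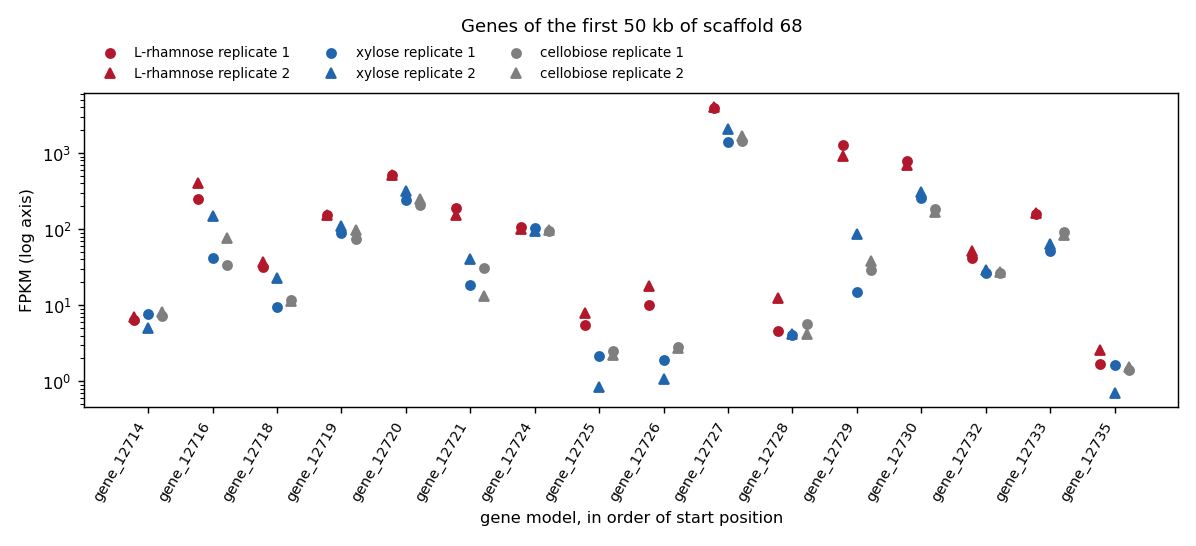
FPKM on a log axis of the 16 genes in the first 50 kb of scaffold 68, in order of start position, with 1 point per library and L-rhamnose, xylose and cellobiose from left to right for each gene. The L-rhamnose points stand above the others for most genes, most widely at gene_12729, and lie among them at gene_12714 and gene_12724.

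Between and beside these genes lay 4 that did not pass the test in any comparison. The first of the 52 genes, gene_12714 (2849 to 3781), was at 6.41 and 7.07 FPKM on L-rhamnose, 7.72 and 5.07 FPKM on xylose and 7.17 and 8.25 FPKM on cellobiose. The xylose pair spanned the L-rhamnose pair, which lay just under the cellobiose pair. Between the first run and the overlapping genes, gene_12724 (24253 to 27309, 9 exons) held 106 and 101 FPKM on L-rhamnose, 105 and 94.2 FPKM on xylose and 94.5 and 98.9 FPKM on cellobiose, nearly the same on each sugar. On L-rhamnose its level lay under that of gene_12721 and far above that of gene_12725. The 2-exon gene_12728 (33363 to 33699), which ends less than 200 bases before gene_12729 on the other strand, had 4.55 and 12.4 FPKM on L-rhamnose, 4.11 and 4.18 FPKM on xylose and 5.72 and 4.22 FPKM on cellobiose. The last gene of the window, gene_12735 (49378 to 50712), was at or under 2.56 FPKM in all 6 libraries.

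L-rhamnose and xylose were compared as sugars of pectin and xylan. Genes called higher on L-rhamnose outnumbered those called lower here too, and lay in each of the first 3 windows. Of the 51 tested genes, 18 were higher (35.3%) and 4 lower (7.84%) by edgeR, where 15.9% of all tested genes were higher and 15.6% lower, 13 higher and 2 lower genes being at least 2-fold apart (12.6% and 8.61% of all). The median log2 fold change was 0.53 over the 51 genes and 0.01 over all tested genes. This comparison uses the same L-rhamnose libraries as that with cellobiose, so both rest on the same values for that sugar. By windows, the medians were 1, 0.05, 0.50 and 0.21 in order along the scaffold, with 9, 3, 6 and 0 higher genes. The first window ranked 5 of 688 by its median and 1 by its share of higher genes (56.2%). By the share it ranked 63 without L-rhamnose replicate 1 (11.8% of its tested genes called), 9 without L-rhamnose replicate 2 (25%), 11 without xylose replicate 1 (35.3%) and 1 when any 1 of the other 3 libraries was left out, and by the median between 1 and 8. The number of higher genes was 3 and 7 without L-rhamnose replicates 1 and 2 (3.85% and 5.78% of all genes called higher), 10 and 14 without xylose replicates 1 and 2 (10.5% and 15.2%), and 12 without either cellobiose library (12.8% and 12.9%), while the medians of the scaffold's genes stayed between 0.42 and 0.66. Without library-composition factors, which moved the median of all genes to 0.16, 21 genes were higher and 2 lower, against 19.5% and 11.4% of all genes.

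Xylose and cellobiose gave 0 higher and 0 lower genes on scaffold 68 by edgeR, where 1.66% of all tested genes were called higher and 2.55% lower, 4.21% in either direction, and 1.54% and 2.43% with at least a 2-fold change. An unadjusted p under 0.05 was found for 6 of the 51 genes (11.8%), against 2532 of all 12667 tested genes. Fold changes lay between -1.98 and 0.90 on the log2 scale with a median of 0.10. DESeq2 called 3 genes, higher for gene_12730 (0.81 ± 0.20) and gene_12782 (0.91 ± 0.31) and lower for gene_12744 (-1.37 ± 0.44), in a fit that called 4.21% of all genes higher and 4.41% lower. Limma called gene_12763 lower (-1.26 ± 0.25 on log2(FPKM + 1)), with 3.02% of all genes called lower. Without xylose replicate 1, edgeR called gene_12718 (1.08 ± 0.22), gene_12729 (1.46 ± 0.29) and gene_12782 (1.22 ± 0.22) higher, with 2.91% of all genes called higher. These genes were named after their values were seen, except those also named by the rule.

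**Figure D5:**
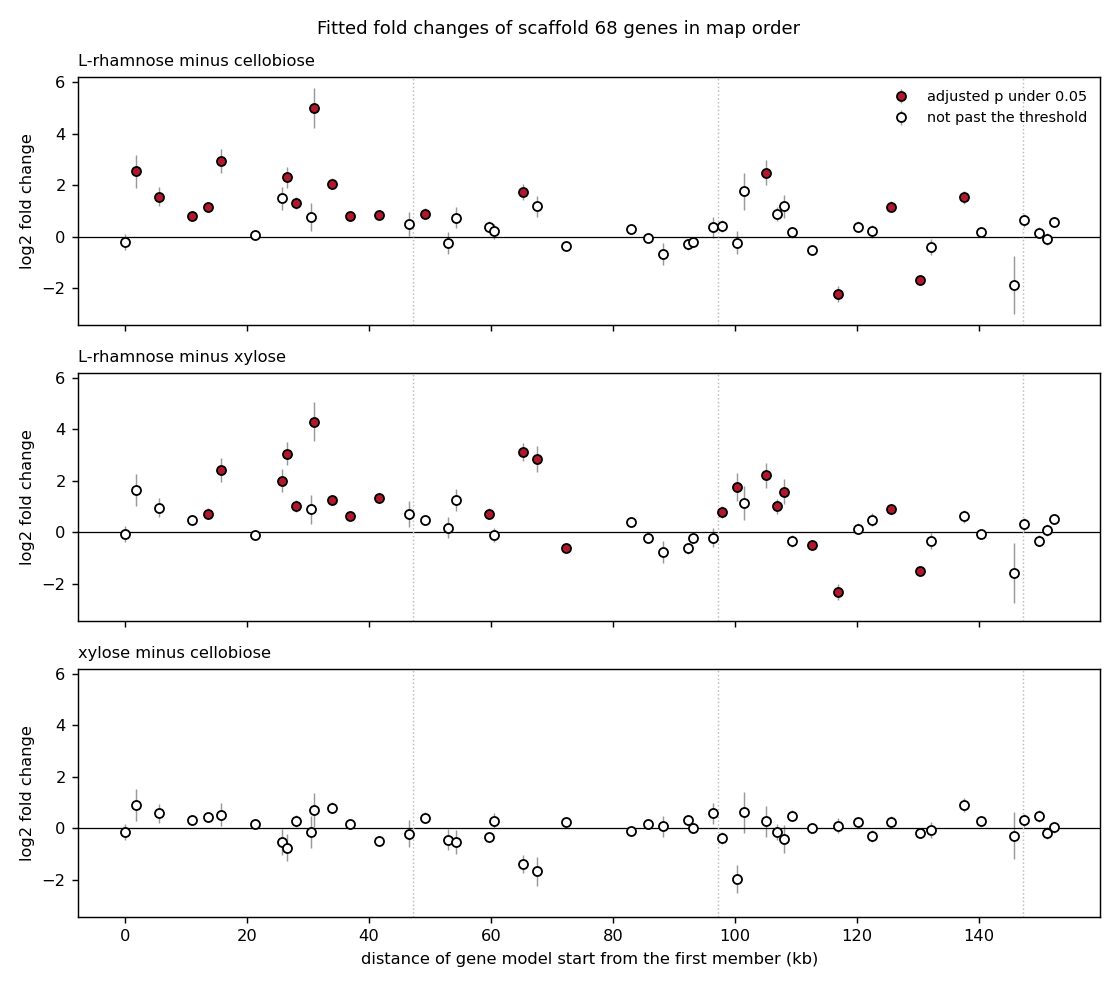
Fitted log2 fold changes of the 51 tested genes, with error bars of 1 SE, by distance of the gene's start from the first gene, for L-rhamnose minus cellobiose (top), L-rhamnose minus xylose (middle) and xylose minus cellobiose (bottom). Filled points passed an edgeR adjusted p under 0.05 and dotted lines part the 50 kb windows. The filled points of the top panel crowd into the first window, and the bottom panel has none.

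In the second window, from 50001 to 100000, 2 of 14 tested genes were higher on L-rhamnose than on cellobiose (14.3%, against 11.0% of all tested genes). The 5-exon gene_12736 (52011 to 55012, named after its values were seen) was at 118 and 152 FPKM on L-rhamnose, 84.7 and 91.3 FPKM on xylose and 64.2 and 79.7 FPKM on cellobiose, a rise of 0.89 ± 0.21 against cellobiose (edgeR adjusted p = 0.0276, lost without any 1 library of L-rhamnose or cellobiose). The other was gene_12744 (JGI protein 950090, plus strand, 68059 to 68491), whose coding length of 195 bases in 5 exons is the shortest of the 52 genes. It stood at 211 and 130 FPKM on L-rhamnose, 16.4 and 19 FPKM on xylose and 59.7 and 40.6 FPKM on cellobiose, so that the 3 sugars were apart with xylose at the bottom. It rose by 3.11 ± 0.34 against xylose (edgeR adjusted p = 0.00228, and past the threshold without any 1 library) and by 1.74 ± 0.31 against cellobiose (edgeR adjusted p = 0.0131, lost without either L-rhamnose library or cellobiose replicate 2). Its difference between xylose and cellobiose was -1.38 ± 0.35 (edgeR adjusted p = 0.0789).

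The same order of the sugars was seen in its neighbour gene_12745 (minus strand, 70392 to 72021, 3 exons) at a far lower level, with 4.39 and 3.08 FPKM on L-rhamnose, 0.57 and 0.35 FPKM on xylose and 1.15 and 2.09 FPKM on cellobiose. It rose by 2.85 ± 0.51 against xylose (edgeR adjusted p = 0.00881, lost without L-rhamnose replicate 1), on counts of 35 and 26 with L-rhamnose, against 5 and 3 with xylose. Against cellobiose its difference of 1.17 ± 0.42 did not pass (edgeR adjusted p = 0.0827). One gene of this window went the other way, gene_12749 (75198 to 76782, named after its values were seen), at 81.2 and 82.2 FPKM on L-rhamnose, 113 and 112 FPKM on xylose and 98.4 and 108 FPKM on cellobiose. It fell by 0.61 ± 0.16 on the log2 scale against xylose (edgeR adjusted p = 0.0258, lost without either L-rhamnose library or xylose replicate 1). The third gene of the window that rose against xylose, gene_12741 (62557 to 63225, named after its values were seen), changed by 0.72 with an edgeR adjusted p of 0.0396 that was lost without any 1 of the 6 libraries.

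From 85730 to 100254, 6 genes that follow each other in the set did not pass in any comparison. This is a description only, since most tested genes were not called in a given comparison. Called in either direction were 22.0% of all between L-rhamnose and cellobiose, 31.5% between L-rhamnose and xylose and 4.21% between xylose and cellobiose. The 6 genes ranged from gene_12760 (99264 to 100254), with means of 1.86 FPKM on L-rhamnose, 1.95 FPKM on xylose and 1.42 FPKM on cellobiose, to gene_12758 (95936 to 97047), with means of 139 FPKM on L-rhamnose, 146 FPKM on xylose and 156 FPKM on cellobiose. For gene_12753 (88652 to 91042) the libraries were at 40.6 and 38.4 FPKM on L-rhamnose, 41.7 and 41.7 FPKM on xylose and 37.4 and 43.7 FPKM on cellobiose. The cellobiose pair alone spanned all the other libraries.

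The third window, from 100001 to 150000, held genes that rose and genes that fell. Against cellobiose 3 of its 17 tested genes rose and 2 fell, where 11.0% of all tested genes rose and 11.0% fell. Against xylose 6 rose and 3 fell, where 15.9% of all rose and 15.6% fell. By its share of higher genes the window ranked 129 of 688 against cellobiose (17.65%) and 32 of 688 against xylose (35.29%). The lowly expressed genes gene_12765 (minus strand, 108007 to 108558), gene_12766 (plus strand, 109709 to 110656) and gene_12767 (plus strand, 110878 to 111902) formed a run of genes higher on L-rhamnose than on xylose, with a mean of 7.38 and 5.45 FPKM on L-rhamnose, 2.15 and 1.72 FPKM on xylose and 2.26 and 2.53 FPKM on cellobiose. The first of them was at 7.85 and 5.14 FPKM on L-rhamnose, 1.09 and 1.39 FPKM on xylose and 1.38 and 0.84 FPKM on cellobiose, from counts of 26 and 18 on L-rhamnose and 3 to 5 on the others. It thus met the count rule through L-rhamnose alone. It rose by 2.48 ± 0.48 against cellobiose and 2.21 ± 0.47 against xylose (edgeR adjusted p = 0.016 and 0.0146).

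The single-exon genes beside it rose by 1.02 ± 0.29 (gene_12766) and 1.58 ± 0.49 (gene_12767) against xylose (edgeR adjusted p = 0.0345 and 0.0456), the second by 2.24 without xylose replicate 1. The fold change of gene_12766 stayed between 1.01 and 1.04 without any 1 library, but these calls were fragile. That of gene_12766 was lost without any 1 of the 6 libraries, that of gene_12767 in all such fits but the one without xylose replicate 1, and those of gene_12765 without either library of L-rhamnose or cellobiose (against cellobiose) and without L-rhamnose replicate 1 or xylose replicate 1 (against xylose). In the same stretch gene_12763 (103228 to 104094, named after its values were seen) had 2.37 and 2.80 FPKM on L-rhamnose, 0.53 and 0.82 FPKM on xylose and 3.25 and 2.74 FPKM on cellobiose, from counts of 2 and 3 on xylose, so that only xylose stood apart. Its rise of 1.75 ± 0.55 against xylose (edgeR adjusted p = 0.0493) was lost without any 1 of the 6 libraries. The same was true of gene_12761 (100723 to 102051, named after its values were seen), which rose by 0.79 ± 0.24 against xylose (edgeR adjusted p = 0.0456) at 23.5 and 17.4 FPKM on L-rhamnose, 9.97 and 11.4 FPKM on xylose and 15.9 and 14.1 FPKM on cellobiose.

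Among the better expressed genes of this window, gene_12782 (JGI protein 978874, plus strand, 140377 to 142873, 16 exons) stood at 137 and 115 FPKM on L-rhamnose, 55.1 and 93.8 FPKM on xylose and 46.1 and 40.7 FPKM on cellobiose. It rose by 1.52 ± 0.26 against cellobiose (edgeR adjusted p = 0.0117), with xylose between the other sugars. The 19-exon gene_12776 (minus strand, 128473 to 131235), with the most exons on the scaffold, was at 17.2 and 13.7 FPKM on L-rhamnose, 7.78 and 7.10 FPKM on xylose and 6.92 and 6.72 FPKM on cellobiose. It rose by 1.16 ± 0.21 against cellobiose and 0.91 ± 0.21 against xylose (edgeR adjusted p = 0.0146 and 0.0199). Both genes were named after their values were seen, both calls against cellobiose were lost without any 1 library of L-rhamnose or cellobiose, and that of gene_12776 against xylose was lost without either L-rhamnose library or xylose replicate 2.

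The genes that fell on L-rhamnose lay between those that rose. The 18-exon gene_12771 (JGI protein 823700, plus strand, 119750 to 122954) stood at 2.40 and 1.64 FPKM on L-rhamnose, 7.69 and 10.6 FPKM on xylose and 10.9 and 7.61 FPKM on cellobiose. Both L-rhamnose libraries were under the other 4, which overlapped. It fell by 2.22 ± 0.31 on the log2 scale against cellobiose and by 2.32 ± 0.32 against xylose (edgeR adjusted p = 0.00716 and 0.00405). The 5-exon gene_12778 (JGI protein 950110, plus strand, 133209 to 134682) was at 29.8 and 30.2 FPKM on L-rhamnose, 81.9 and 71.4 FPKM on xylose and 91.0 and 101 FPKM on cellobiose, with replicates close on each sugar. It fell by 1.70 ± 0.17 against cellobiose and by 1.50 ± 0.17 against xylose (edgeR adjusted p = 0.00286 and 0.00257). Against xylose both falls stayed past the threshold without any 1 library, whereas against cellobiose that of gene_12771 was lost without either L-rhamnose library and that of gene_12778 without L-rhamnose replicate 1. A smaller fall against xylose was that of gene_12769 (115434 to 118089, named after its values were seen), by 0.49 ± 0.15 (edgeR adjusted p = 0.0487, lost without any 1 of the 6 libraries), at 41.4 and 40 FPKM on L-rhamnose, 52 and 51.7 FPKM on xylose and 55.2 and 58.5 FPKM on cellobiose.

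The last gene of the window, gene_12784 (148602 to 149159), rested on few reads. It stood at 0.57 and 0.54 FPKM on L-rhamnose, 2.83 and 0.26 FPKM on xylose and 1.04 and 3.16 FPKM on cellobiose, with counts of 11 and 1 in the xylose pair. Its difference of -1.88 ± 1.12 from cellobiose did not pass (edgeR adjusted p = 0.254).

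Beyond 150000 bases lay 4 of the 52 genes, among 6 models, and none of the 4 passed in any comparison. The highest, gene_12786 (152706 to 153473), stood at 134 and 105 FPKM on L-rhamnose, 128 and 142 FPKM on xylose and 88.0 and 123 FPKM on cellobiose. The L-rhamnose pair overlapped with both others. In all, 24 of the 51 tested genes passed in no comparison, and their average levels ran from 1.40 to 147 FPKM with a median of 11.4. Over all tested genes the share that passed in none was not counted. Called in either direction were 22.0% of them between L-rhamnose and cellobiose, 31.5% between L-rhamnose and xylose and 4.21% between xylose and cellobiose, so the count of 24 is a description only. The fold changes of these 24 genes on L-rhamnose lay between -1.88 and 1.76 on the log2 scale against cellobiose and between -1.58 and 1.26 against xylose.

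The 16 genes that rose against cellobiose were set beside the other 35 tested genes as a description. Their median level was 40 and 40.6 FPKM on cellobiose, against 10.9 and 11.4 FPKM for the other 35. They had a median of 5 exons, against 3, and a median coding length of 1506 bases, against 948. A test on counts passes genes with more reads more readily, and both level and coding length raise the reads of a gene. Whether these contrasts go beyond that was not tested. The plus strand held 10 of the 16 and 15 of the 35, and an untranslated region was annotated for 9 of the 16 and 22 of the 35. Neighbours on the same strand differed in their fold change between L-rhamnose and cellobiose by a median of 0.72 on the log2 scale over the 17 pairs with both genes tested, convergent neighbours by 0.89 over 16 and divergent ones by 0.99 over 16.

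Taken by libraries and without a test, both L-rhamnose libraries were above the other 4 in CPM for 27 of the 51 tested genes (52.9%), where the same held for 25.2% of all tested genes. Both were below the other 4 for 4 genes (7.84%, against 25.6% of all). Both cellobiose libraries were below the other 4 for 11 genes (21.6%, against 10.1%) and above them for 1 (1.96%, against 10.6%). Both xylose libraries were below the other 4 for 10 (19.6%, against 16.0% of all) and above them for 3 (5.88%, against 14.3%).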

How the data were processed

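For each library the authors deposited a table of genes with the coding length, an expected count and an FPKM value. Per the submitters' processing notes Bowtie2, HISAT and RSEM were used; any version, setting, strand mode or build is not given in the sources used here. FPKM was scaled by the authors to length and library size. Gene models come from the JGI gene catalog of the strain that the authors deposited, and the listed lengths equalled the coding length in 100% of genes. Genes not listed in a library were taken as 0.

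Here the deposited expected counts were rounded and filtered with filterByExpr, and 12667 genes were tested in one fit of all 6 libraries by edgeR's quasi-likelihood test (version 4.0.16, R 4.3.3, TMM factors). The p-values were adjusted by Benjamini-Hochberg over all tested genes of a comparison. The SE of a log2 fold change was taken from its F statistic. DESeq2 1.42.0 and limma 3.58.1 on log2(FPKM + 1) were alternatives. Scripts were tested on simulated data.

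Genes were named by rule: per comparison and direction the 5 greatest changes of at least 2-fold among called genes, the 5 highest mean levels, runs of at least 3 neighbouring genes called alike, the genes at the edge of the count rule, and the widest replicate spread, which is gene_12729 in log2(FPKM + 1) and gene_12784 in log2 CPM without a prior count. The genes, windows and lists were chosen with earlier results of these data known.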

Additional observations from a re-analysis of the deposited data

How the results depend on the processing

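Between L-rhamnose and cellobiose, 13 to 23 genes of scaffold 68 were higher and 2 to 3 lower in the settings that kept all libraries of both sugars, which called 6.75% to 21.7% of all genes higher and 5.86% to 21.6% lower. These settings include a block of crossed replicate numbers, described below and added after the data were seen. It gave the 23 and 3 here and the 9 higher genes against xylose. The median log2 fold change was 0.41 with limma on log2(FPKM + 1), whose pseudocount shrinks low genes by construction. Without 1 library the counts were 1 to 17 higher and 0 to 2 lower, and the median 0.42 to 0.58. Between L-rhamnose and xylose, 9 to 21 genes were higher in such settings (12.0% to 19.5% of all genes), with 14 of the 18 called again by DESeq2, 12 with only the 2 sugars compared and 12 with the replicate block. Lower genes numbered 2, in place of 4, with library size only, with limma on log2(FPKM + 1) and log2(FPKM + 0.1) and with the replicate block, which called 10.2% to 11.4% of all genes lower, and the cause was not tested. Without 1 library there were 3 to 14 higher and 2 to 3 lower genes. Between xylose and cellobiose, DESeq2 gave 2 higher and 1 lower gene (4.21% and 4.41% of all genes) and limma 0 higher and 1 lower with either pseudocount. Without 1 library there were 0 to 3 higher genes and 0 lower.

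With the replicate number as a block, 13 genes were higher and 2 lower on L-rhamnose than on cellobiose (6.75% and 5.86% of all genes), 13 and 2 against xylose (12.0% and 10.5%), and 0 and 0 between xylose and cellobiose (1.12% and 1.82%). Same-numbered libraries did not deviate in the same direction (r = -0.101, -0.227 and -0.14 over 12667 genes). These values cannot show whether same-numbered libraries were handled as pairs. With crossed numbers as a block and only the 2 sugars compared, added after the data were seen, there were 23 higher and 3 lower genes against cellobiose (21.7% and 21.6% of all genes), 9 and 2 against xylose (13.0% and 12.0%) and 0 and 0 between xylose and cellobiose. A threshold of 10 counts in all 6 libraries would leave 39 genes and 1 count in 2 libraries 61. With 2 libraries per sugar, changes well under 2-fold and those of genes with few reads are at the limit of what these data detect.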

Other observations

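The xylose replicates were set beside each other along the scaffold. Replicate 2 was above replicate 1 in FPKM for 11 of the 16 genes in the first 50 kb, with a median log2 ratio of 0.26, against 0.13, 0.05 and 0.22 in the 3 later windows and 0.04 over all 12699 genes that met the count rule, of which 54.7% were higher in replicate 2. The count was the same for the L-rhamnose pair, 11 of 16 with a median ratio of 0.08. All genes had -0.08 there, with 40.9% higher in replicate 2. For the cellobiose pair it was 9 of 16 with 0.04, where all genes had -0.01 and 48.7%. An excess over all genes was thus not limited to the xylose pair. In the second window xylose replicate 2 was higher for 10 of 15 genes. All 5 genes of the first run were among those higher in xylose replicate 2, such as gene_12716, at 42.2 FPKM in replicate 1 and 149 FPKM in replicate 2. The overlapping genes gene_12725 and gene_12726 went the other way, at 2.15 and 1.93 FPKM in replicate 1 and 0.85 and 1.07 FPKM in replicate 2. With 2 replicates no test of this difference was made.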
